A study of Mus musculus with 60 samples.

Results

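The genes described here are the 10 named genes of the stress axis: the corticosteroid receptors Nr3c1 and Nr3c2, the peptide Crh, its binding protein Crhbp and its receptors Crhr1 and Crhr2, the steroid-activating enzyme Hsd11b1, and the hormone-induced genes Fkbp5, Sgk1 and Tsc22d3. They were followed through every peak assigned to one of these symbols in 12 peak lists, 279 peaks among 256375. The 10 genes stand among 16994 gene symbols with a peak in at least 1 list. CUT&RUN-seq, in which an antibody guides a nuclease to release the DNA beside a histone modification, was run for the active mark H4K8ac, a histone acetylation, and the repressive mark H3K27me3, a histone methylation. All nuclei came from the hippocampus of male Emx1-NuTRAP mice, in which Emx1-IRES-Cre switches on the NuTRAP cassette and so tags nuclei of Emx1-expressing, mostly excitatory neurons for capture. Cre is on from development in this line, and Emx1-expressing progenitors of the dentate gyrus are tagged too. Exercised mice were housed with a running wheel over postnatal days 21 to 41 (early-life exercise, ELE), and sedentary mice had standard cages over the same days. In SIT, the simultaneous isolation, 1 homogenate of left and right hippocampus gave nuclei and RNA. In the separate isolations, nuclei were prepared from a left or a right hippocampus alone. These 3 isolations are called arms.

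The labels give 60 samples in 18 groups, with 4 samples per SIT group and 3 per separate group, of which 20 are IgG controls with no list of their own. Each list pools the libraries of 1 mark, condition and arm, and holds positions and assigned genes with no signal. The depth is unknown, there is no replicate error within a list, and each list is 1 unit. H4K8ac lists held 12168 to 38136 peaks and H3K27me3 lists 9899 to 25693. The longer list was the exercised one in SIT for both marks and the sedentary one in the right arm for both marks. In the left arm the sedentary list was longer for H4K8ac and the exercised list for H3K27me3. The authors left out some exercised H4K8ac libraries of both kinds of isolation for a high false discovery rate, and describe their peak calls for fewer mice of either condition than the labels give for SIT. The number of libraries behind a list can thus be lower than its number of samples. A peak missing from a list because fewer nuclei carried the mark, because each nucleus carried less, or because the libraries were shallower cannot be told apart. The captured cells were checked against marker genes. Of 8 markers of Emx1-lineage excitatory neurons, 3 to 5 had an H4K8ac promoter peak in each list. None of the 8 interneuron markers did, and 5 to 7 of those had an H3K27me3 promoter peak. Of the other markers, 0 to 2 of 6 for astrocytes, 1 to 2 of 6 for the oligodendrocyte lineage, 1 to 2 of 6 for microglia and 0 to 1 of 5 for endothelial cells had an H4K8ac promoter peak. An H3K27me3 promoter peak was found at 1 to 2 of the 8 excitatory markers, 3 of the 6 for astrocytes, 2 to 3 of the 6 for the oligodendrocyte lineage, 1 to 3 of the 6 for microglia and 2 of the 5 for endothelial cells.

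The stress axis begins with corticotropin-releasing hormone, the product of Crh, which acts through the receptors encoded by Crhr1 and Crhr2 and is held in check by the binding protein encoded by Crhbp. Its end product in mice is corticosterone, which crosses into neurons and binds the mineralocorticoid receptor (Nr3c2) with high affinity and the glucocorticoid receptor (Nr3c1) with lower affinity. Both receptors are abundant in hippocampal pyramidal and granule neurons. The hormone-bound receptors act at DNA elements near genes such as Fkbp5, whose product is a co-chaperone that lowers receptor sensitivity, Sgk1, a kinase, and Tsc22d3, which encodes the leucine zipper protein GILZ. Running is itself known to raise corticosterone in rodents. The comparison of exercised with sedentary mice addresses how exercise in early life alters both marks in these neurons.

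H4K8ac held 236 member peaks at 9 of the 10 genes (79.9% of all 16994 genes had such a peak in some list), and 193 of them (81.8%) were assigned to Nr3c2 or Sgk1. H3K27me3 held 43 member peaks at 5 genes (43.5% of all genes), namely Crh, Crhbp, Crhr2, Tsc22d3 and Nr3c1. All of these but Crh had both marks in some list, 4 of the 10 genes against 23.5% of all. Crh carried H3K27me3 in 6 of 6 lists and no H4K8ac peak in any. The opposite arrangement, H4K8ac in 6 of 6 lists and no H3K27me3 in any, was found for Nr3c2, Hsd11b1 and Sgk1. That arrangement holds for 2334 (13.7%) of the 16994 genes, and the arrangement of Crh for 1334 (7.85%).

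**Figure D1:**
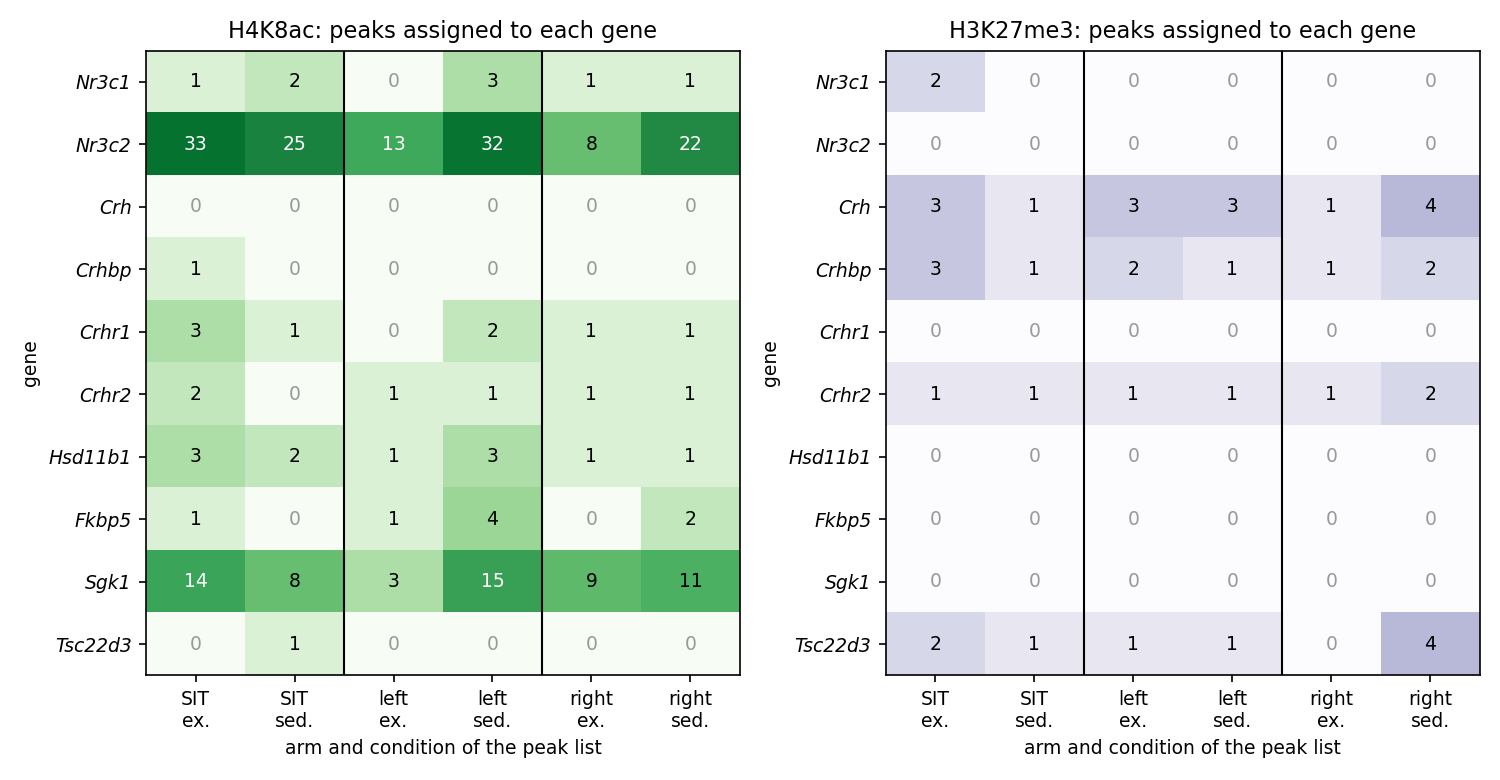
Number of peaks assigned to each of the 10 genes (rows) in each of the 6 lists of H4K8ac (left panel) and H3K27me3 (right panel), with darker cells for more peaks and columns in pairs of exercised (ex.) and sedentary (sed.) lists per arm. Nr3c2 and Sgk1 hold 8 to 33 and 3 to 15 H4K8ac peaks per list and no H3K27me3 peak, and Crh, Crhbp and Crhr2 hold 1 to 4 H3K27me3 peaks in every list.

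The number of the 10 genes with an H4K8ac peak was 8 in the exercised and 6 in the sedentary SIT list. Over all 16994 genes, 63.2% and 51.0% were listed there. In the left arm the numbers were 5 exercised and 7 sedentary, against 30.0% and 60.1% of all genes. In the right arm they were 6 and 7, against 34.1% and 49.0%. H3K27me3 listed 5 exercised and 4 sedentary members in SIT, where it listed 38.1% and 22.5% of all genes. It listed 4 and 4 in the left arm (30.6% and 27.5% of all genes) and 3 and 4 in the right arm (20.6% and 35.4%). The members' counts ran in the direction of the list lengths for both marks, except in the left H3K27me3 pair, where the counts were equal. With the same number of peaks kept in both lists of a pair, widest first, the direction turned in 3 pairs: H4K8ac became 5 exercised against 4 sedentary in left and 6 against 5 in right, and H3K27me3 became 3 against 4 in SIT. In the right H3K27me3 pair the counts became equal, 3 and 3. The share of all genes listed under this setting is not given here, so these counts have no background beside them. Member peaks made up 12.8 to 16.5 of every 10000 H4K8ac peaks and 3.03 to 5.51 of every 10000 H3K27me3 peaks.

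No member was listed for one condition alone in 3 of 3 arms, for either mark. Such a repeat was also rare over all genes listed for the mark: 0.125% were in the exercised list only and 0.891% in the sedentary list only in every arm for H4K8ac, and 0.189% and 0.0405% for H3K27me3. Within single arms, 3 of the 9 members listed for H4K8ac in SIT were in the exercised list only (Crhbp, Crhr2 and Fkbp5), where 27.5% of all listed genes were. Tsc22d3 was in the sedentary SIT list only, as were 10.1% of genes. In the left arm Nr3c1 and Crhr1, 2 of 7 members, were in the sedentary list only, as were 51.9% of genes, and 0 of 7 were in the exercised list only (3.58% of genes). In the right arm Fkbp5, 1 of 7, was in the sedentary list only (36.7% of genes) and 0 were in the exercised list only (9.14%). For H3K27me3, Nr3c1 was 1 of 5 members in the exercised SIT list only (41.4% of genes), and 0 were in the sedentary SIT list only (1.02%). In the left arm all 4 listed members were in both lists, where 18.5% of genes were in the exercised and 9.13% in the sedentary list only. Tsc22d3 was 1 of 4 in the sedentary list only in the right arm (43.6% of genes), and 0 were in the exercised list only (3.12%).

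Nr3c1, which encodes the glucocorticoid receptor (chromosome 18, 39410545 to 39519421, mm10, minus strand), was listed for H4K8ac in 5 of 6 lists and for H3K27me3 in 1. H4K8ac peaks numbered 1 in the exercised and 2 in the sedentary SIT list, 0 and 3 in the left arm, and 1 and 1 in the right arm. The 8 peaks were 700 to 1943 bp wide, above 1.2 to 65.7% of the peaks of their lists. A region at an internal promoter, 26435 to 27767 bp into the gene, was in the sedentary SIT and sedentary left lists and in no exercised list. Both exercised peaks, with 1 sedentary right peak, fell instead in 1 intergenic region 39324 to 41352 bp upstream of the most upstream start site. H3K27me3 was listed only for exercised SIT mice, the longest list of that mark, as a 1526 bp peak in an intron and a 1472 bp peak 116428 bp upstream in an exon of AC124518.3. Covered bases in the window, which is the gene body with 3 kb on either side, were 700, 2645 and 0 for sedentary and 0 in each exercised list for H4K8ac (SIT, left, right). The sign-flip test over arms, an exact two-sided permutation test whose smallest p with 3 arms is 0.25, gave p = 0.5.

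Nr3c2, which encodes the mineralocorticoid receptor (chromosome 8, 76899442 to 77245012, plus strand), held the most H4K8ac peaks of the 10 genes over the 6 lists, 133, and no H3K27me3 peak. In the exercised right list alone Sgk1 held more, 9 against 8. It had 33 peaks in the exercised and 25 in the sedentary SIT list, 13 and 32 in the left arm, and 8 and 22 in the right arm. By number of peaks it ranked between 70 and 230 among the genes of a list. The ratios of exercised to sedentary peaks were 1.32 in SIT, 0.406 in left and 0.364 in right, and those of the whole lists were 1.26, 0.334 and 0.545. The direction of the difference at Nr3c2 was that of the list lengths in all 3 arms.

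Most of this acetylation lay far from the gene. Of the 133 peaks, 97 lay over 250 kb upstream of the start, up to 716942 bp away, and 14 (10.5%) touched the gene body. The upstream stretch holds no other protein-coding gene. Of the 133 peaks, 44 lay in introns of the lincRNA Gm45740, 23 in introns of Gm10649, a transcript that starts beside Nr3c2 and runs the other way, and 33 were annotated as distal intergenic. The assignment to Nr3c2 is that of the deposited lists. In the annotation used here, all 97 peaks over 250 kb upstream are nearer to the start of Gm45740 than to that of Nr3c2. They include the 44 in Gm45740 introns. Whether any of the upstream peaks bear on Nr3c2 was not tested. Downstream of the gene, 6 peaks lay in introns and 3 in exons of Arhgap10, and 3 in exons of 4933421D24Rik. The peaks merged into 53 regions, of which 4 were in 6 of 6 lists, at 555936 to 550592, 518632 to 511937, 363689 to 356282 and 279644 to 274519 bp upstream. Among all merged H4K8ac regions of the genome, 5.99% were in 6 of 6 lists. In the third of those regions the lists share no single base.

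At the gene itself the lists parted. The exercised left and right lists held 13 and 8 Nr3c2 peaks, and all 13 and all 8 were over 250 kb upstream. The exercised SIT list held 24 of its 33 there and 5 in the gene or within 3 kb of it. The sedentary lists held 6, 4 and 4 peaks in or within 3 kb of the gene (SIT, left, right). A region ending 13 bp before the start site was in the 3 sedentary lists and the exercised SIT list, with peaks 1178 to 3410 bp wide but no base common to the 4, and an intronic region 214853 to 216740 bp into the gene was in the same 4 lists. Covered bases in the window were 5488, 0 and 0 in the exercised and 6910, 6659 and 6713 in the sedentary lists (SIT, left, right). The mean difference was -4931 ± 3039 bp (exercised minus sedentary, SD over 3 arms, exact sign-flip permutation p = 0.25, the smallest possible). These bases include 2 peaks in 2 lists assigned to Gm10649. With the peaks assigned to Nr3c2 alone, the exercised values were 5488, 0 and 0 and the sedentary ones 6331, 4621 and 6713, so that the exercised value was still the lower in each arm but the conditions overlapped. A lower exercised value in 3 of 3 arms was seen for 6.46% of the 11737 genes with any covered base. Of 4793 genes covered in all 3 sedentary lists, 17.2% were covered in neither exercised separate list, as Nr3c2 was. The SIT difference was -1422 bp, and with 10 kb on either side of the gene Nr3c2 no longer went one way in 3 arms.

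**Figure D2:**
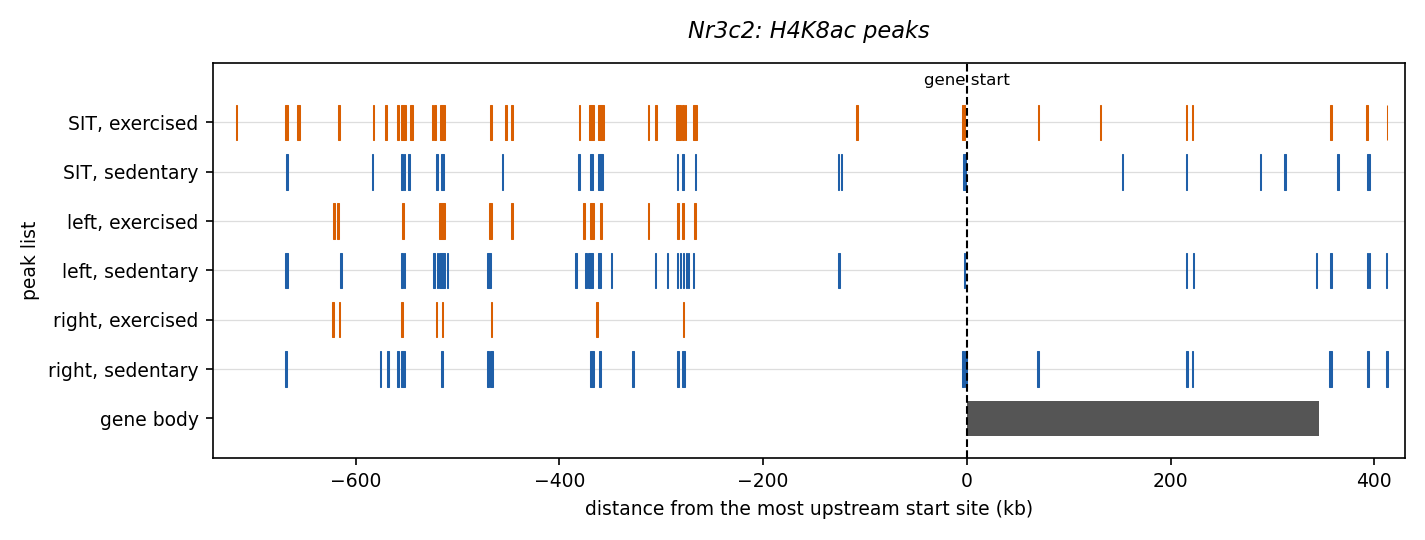
H4K8ac peaks assigned to Nr3c2 in the 6 lists (rows, exercised in orange and sedentary in blue), by distance in kb from the most upstream start site, with the gene body in grey. Clusters recur over 250 kb upstream in all 6 lists, while the exercised left and right lists hold no peak at, within or downstream of the gene.

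Crh, the gene of the releasing hormone itself (chromosome 3, 19693401 to 19695396, minus strand), lay under H3K27me3 in every list. A single peak spanned its start site and part or all of its 1996 bp. That peak was 5932 bp wide in the exercised and 5552 bp in the sedentary SIT list, 6588 and 6047 bp in the left arm, and 4823 and 5944 bp in the right arm. Its width stood above 63.4 to 82.2% of the peaks of its list. The exercised peak was the wider one in SIT and left and the narrower one in right. All 6 lists shared 4793 bp of it, from 19694355 to 19699147. Covered bases in the window differed by 377, -524 and -1151 bp (exercised minus sedentary in SIT, left and right, mean -432.7 ± 768.1 bp, exact sign-flip permutation p = 0.5). A pair of narrower regions downstream, 5323 to 8829 and 9684 to 12049 bp past the start, were in the same 4 lists (exercised SIT, both left lists and sedentary right). They lie in neighbouring genes, Trim55 and BC002189, and were assigned to Crh in the deposited lists.

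Crhbp, whose product sequesters the hormone (chromosome 13, 95431371 to 95444924, minus strand), had a like domain. The peak over its start site was 6499 bp wide in the exercised and 5145 bp in the sedentary SIT list, 5051 and 6026 bp in the left arm, and 2894 and 7089 bp in the right arm. All 6 shared 2113 bp. The narrowest peak was that of the shortest H3K27me3 list. The covered bases in the window differed by 2439, -975 and -4195 bp (exercised minus sedentary in SIT, left and right), and the mean of -910.3 ± 3317 bp lay within the spread between arms (exact sign-flip permutation p = 0.75). Its single H4K8ac peak, 1487 bp in exercised SIT mice, was 7721 bp past the end of the gene.

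The promoter window of Crhbp overlapped an H3K27me3 peak in 6 of 6 lists and lay wholly inside it in 5, and that of Crhr1, the gene of the main hormone receptor in forebrain, overlapped none. Both are shown to compare their sequence, since dense CpG is a known feature of many promoters that carry H3K27me3. The windows are those of RefSeq (GRCm38.p6), 250 bases before to 50 after a start site, and CpG pairs are in capitals. The Crhbp window is chr13:95444782-95445081 on the minus strand and that of Crhr1 is chr11:104132531-104132830 on the plus strand.
Crhbp: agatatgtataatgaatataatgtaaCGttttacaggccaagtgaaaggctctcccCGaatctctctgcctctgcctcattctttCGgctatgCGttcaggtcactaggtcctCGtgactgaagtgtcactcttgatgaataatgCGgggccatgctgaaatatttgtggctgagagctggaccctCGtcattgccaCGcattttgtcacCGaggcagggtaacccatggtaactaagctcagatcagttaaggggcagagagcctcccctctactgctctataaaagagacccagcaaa
Crhr1: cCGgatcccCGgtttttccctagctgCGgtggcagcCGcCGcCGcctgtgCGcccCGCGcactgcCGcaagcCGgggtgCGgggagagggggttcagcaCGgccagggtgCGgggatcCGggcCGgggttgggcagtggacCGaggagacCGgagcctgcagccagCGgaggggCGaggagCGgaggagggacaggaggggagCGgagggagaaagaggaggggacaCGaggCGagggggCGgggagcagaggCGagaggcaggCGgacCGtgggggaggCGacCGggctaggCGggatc
The Crhbp window held 9 CpG, more than 54.2% of the 32851 windows in the table, and the Crhr1 window 31, more than 89.4%. The median of all windows was 7. Of the members, 8 were found in this table, with 15 windows, and Crh and Nr3c1 were not. Of these 15 windows the 1 that overlapped H3K27me3 in every list was thus of middling CpG content, and the 3 richest, of Fkbp5 (32), Crhr1 (31) and Sgk1 (28), had none in any list. The cAMP response element, TGACGTCA, was in 0 of the 15 windows and in 1.79% of all.

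Crhr2, the receptor for urocortins (chromosome 6, 55090049 to 55133016, minus strand), also carried a wide H3K27me3 domain in every list. It lay 13039 to 21336 bp past the most upstream start site and covered 3 of the 8 start sites, all internal, in every list. The RefSeq promoter window of Crhr2, at the most upstream start, overlapped an H3K27me3 peak in 0 lists. The peak was 7729 bp wide in the exercised and 6148 bp in the sedentary SIT list, 8298 and 4327 bp in the left arm, and 4803 and 7555 bp in the right arm. All 6 lists shared 3772 bp, from 55114231 to 55118002. The exercised peak was wider in SIT and left and narrower in right, the same order as at Crh. Covered bases differed by 1581, 3971 and -4682 bp (mean 290 ± 4469 bp, exact sign-flip permutation p = 1), and in each arm the longer list covered more. Crhr2 was also assigned an H4K8ac peak in 5 of 6 lists. In all 5, however, that peak lay in exons of the neighbouring gene Gars, 11560 to 13778 bp outside Crhr2, and the only H4K8ac peak inside Crhr2 was 1406 bp wide in exercised SIT mice. Where both marks were listed for Crhr2, the nearest peaks of the pair were 12.5 to 36.9 kb apart.

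**Figure D3:**
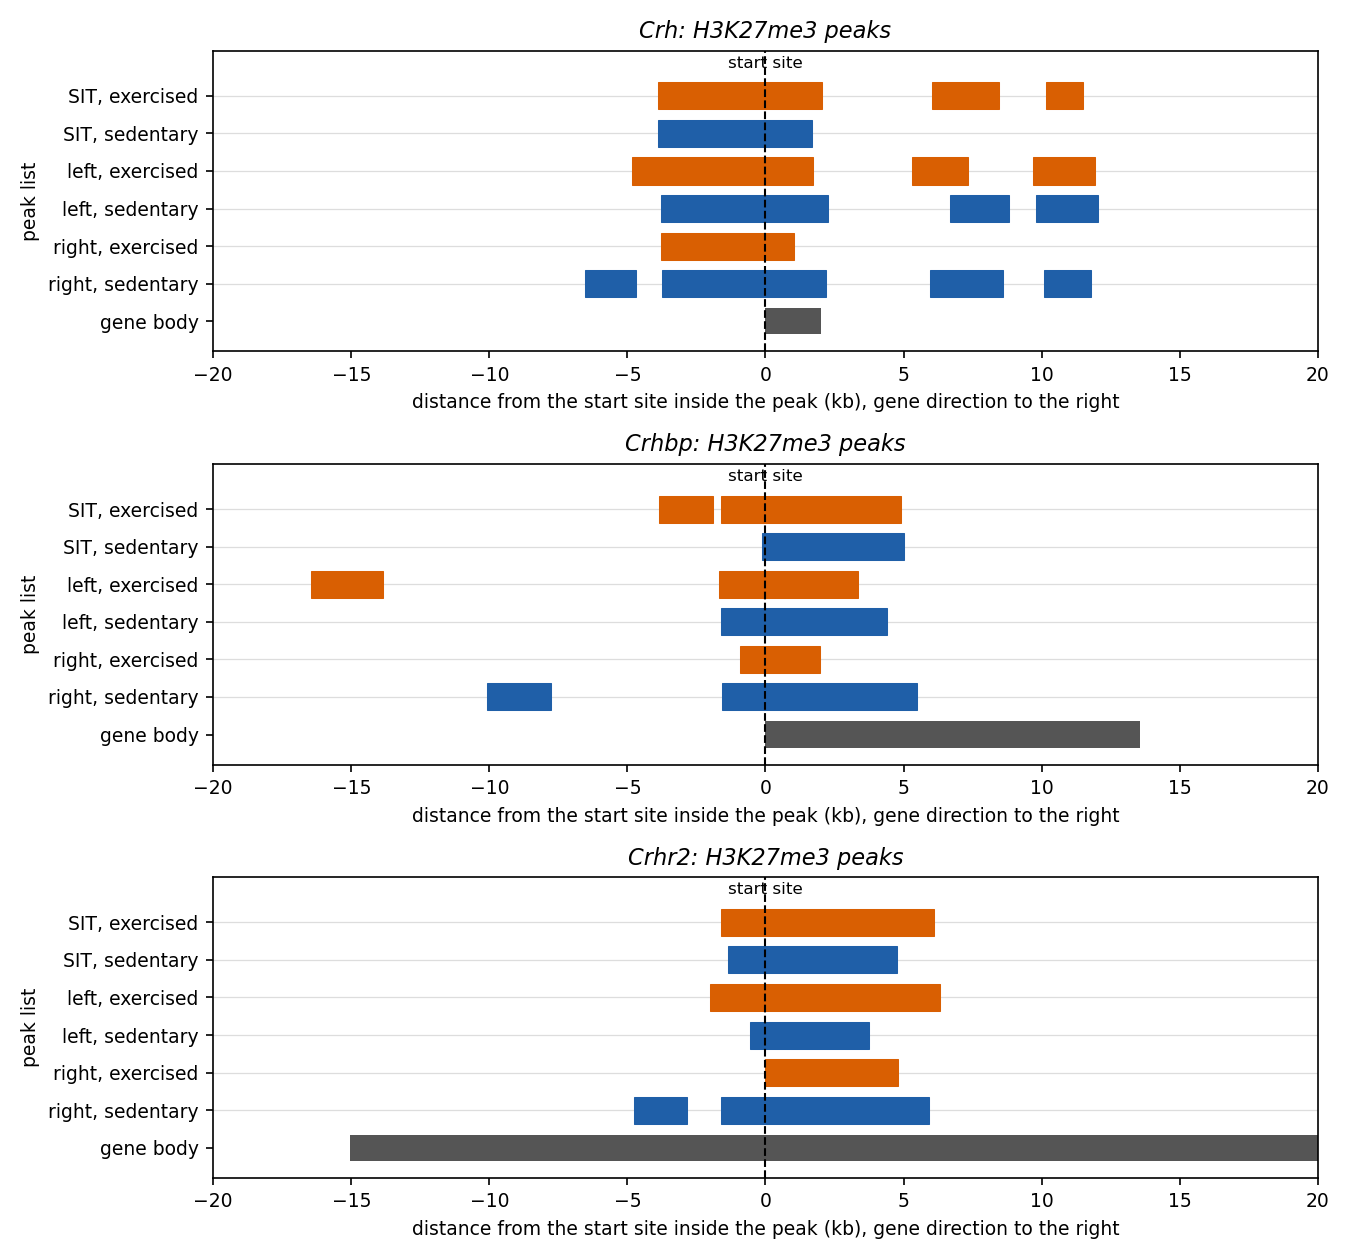
H3K27me3 peaks assigned to Crh, Crhbp and Crhr2 in the 6 lists (rows, exercised in orange and sedentary in blue), by distance in kb from the start site inside the recurrent peak, with the gene body in grey and the direction of the gene to the right. A peak 2894 to 8298 bp wide spans or touches that start site in every list.

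Crhr1 (chromosome 11, 104132855 to 104175523, plus strand) had H4K8ac peaks in 5 of 6 lists and no H3K27me3 peak of its own. There were 3 peaks in the exercised and 1 in the sedentary SIT list, 0 and 2 in the left arm, and 1 and 1 in the right arm. Its start site region, 35 bp before to 1452 bp after the start, held a peak in 2 lists, both exercised: 1102 bp in SIT and 1350 bp in right. Only the SIT peak covered the start, and the right peak began 103 bp after it. The RefSeq window of Crhr1 overlapped an H4K8ac peak in 1 list, exercised SIT. The share of all regions found in exercised lists alone is not given here. The sedentary left and right peaks lay 29529 to 33607 bp upstream, and the exercised SIT list also held a peak there, 29375 bp from the start. Covered bases in the window were 6506, 1725 and 1350 in the exercised and 2864, 1169 and 0 in the sedentary lists (SIT, left, right). The exercised value was the higher in 3 of 3 arms, by 1849 ± 1602 bp (exact sign-flip permutation p = 0.25, the smallest possible), a direction that 1.32% of genes showed. The groups overlapped. Part of those bases came from 5 peaks in 4 lists that were assigned to Sppl2c, a gene inside the window, which accounted for all of the left-arm values. With the peaks assigned to Crhr1 alone, the values were 3177, 0 and 1350 against 1024, 0 and 0, and the left arm showed no difference. H3K27me3 covered 2843 bp of the window in exercised SIT and 2009 bp in sedentary right mice, also in peaks assigned to Sppl2c, and 0 in the other lists. With the start site and 3 kb on either side as the window, H4K8ac at Crhr1 did not go one way in 3 arms.

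Hsd11b1, whose enzyme regenerates corticosterone from its inactive form inside cells (chromosome 1, 193221634 to 193264075, minus strand), was listed for H4K8ac in 6 of 6 lists. It had 3 and 2 peaks in SIT, 1 and 3 in the left arm and 1 and 1 in the right arm (exercised, sedentary). A region around the most upstream start, from 2149 bp before to 1996 bp after it, was in 5 lists and absent from the exercised left list, whose 1 peak was 7160 bp from its nearest start site. The widest peak in that region was 2592 bp in exercised SIT and 1610 bp in exercised right. It was 870 bp in sedentary SIT, 2282 bp in sedentary left and 2439 bp in sedentary right. The sedentary SIT list also held a promoter peak of 952 bp at an internal start, 21167 to 22118 bp into the gene. Hsd11b1 overlaps Lamb3, and 10 of the 11 peaks lay where both genes run, so that they cannot be assigned to one of them by position. The other, in sedentary left mice, lay within Lamb3 and 1073 bp outside Hsd11b1. Covered bases differed by 3654, -3189 and -829 bp (exact sign-flip permutation p = 1), in the direction of the list lengths in each arm.

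Fkbp5 (chromosome 17, 28399094 to 28517527, minus strand) had H4K8ac over its most upstream start in 3 lists, and no H3K27me3 peak. In exercised SIT and exercised left mice 1 unbroken peak spanned the start, of 6172 and 4601 bp, wider than 98.4% and 96.5% of the peaks of those lists. The sedentary right list held a peak of 2771 bp over the start and one of 2086 bp upstream of it. The sedentary left list left the start uncovered, and held 3 peaks of 1519, 931 and 1301 bp upstream, the nearest 739 bp outside the gene. It held a further peak of 1050 bp inside the gene, 457 bp upstream of an internal start. The RefSeq promoter window of Fkbp5, 28486100 to 28486399, is at that internal start and overlapped an H4K8ac peak in 0 lists. The sedentary SIT and exercised right lists held no Fkbp5 peak. The exercised left peak came from the shortest of the 6 H4K8ac lists. Covered bases in the window were 3772, 3828 and 0 in the exercised and 0, 2569 and 2859 in the sedentary lists (SIT, left, right). They were higher in the exercised list in SIT and left and lower in right, a mean difference of 724 ± 3348 bp (exact sign-flip permutation p = 0.75).

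**Figure D4:**
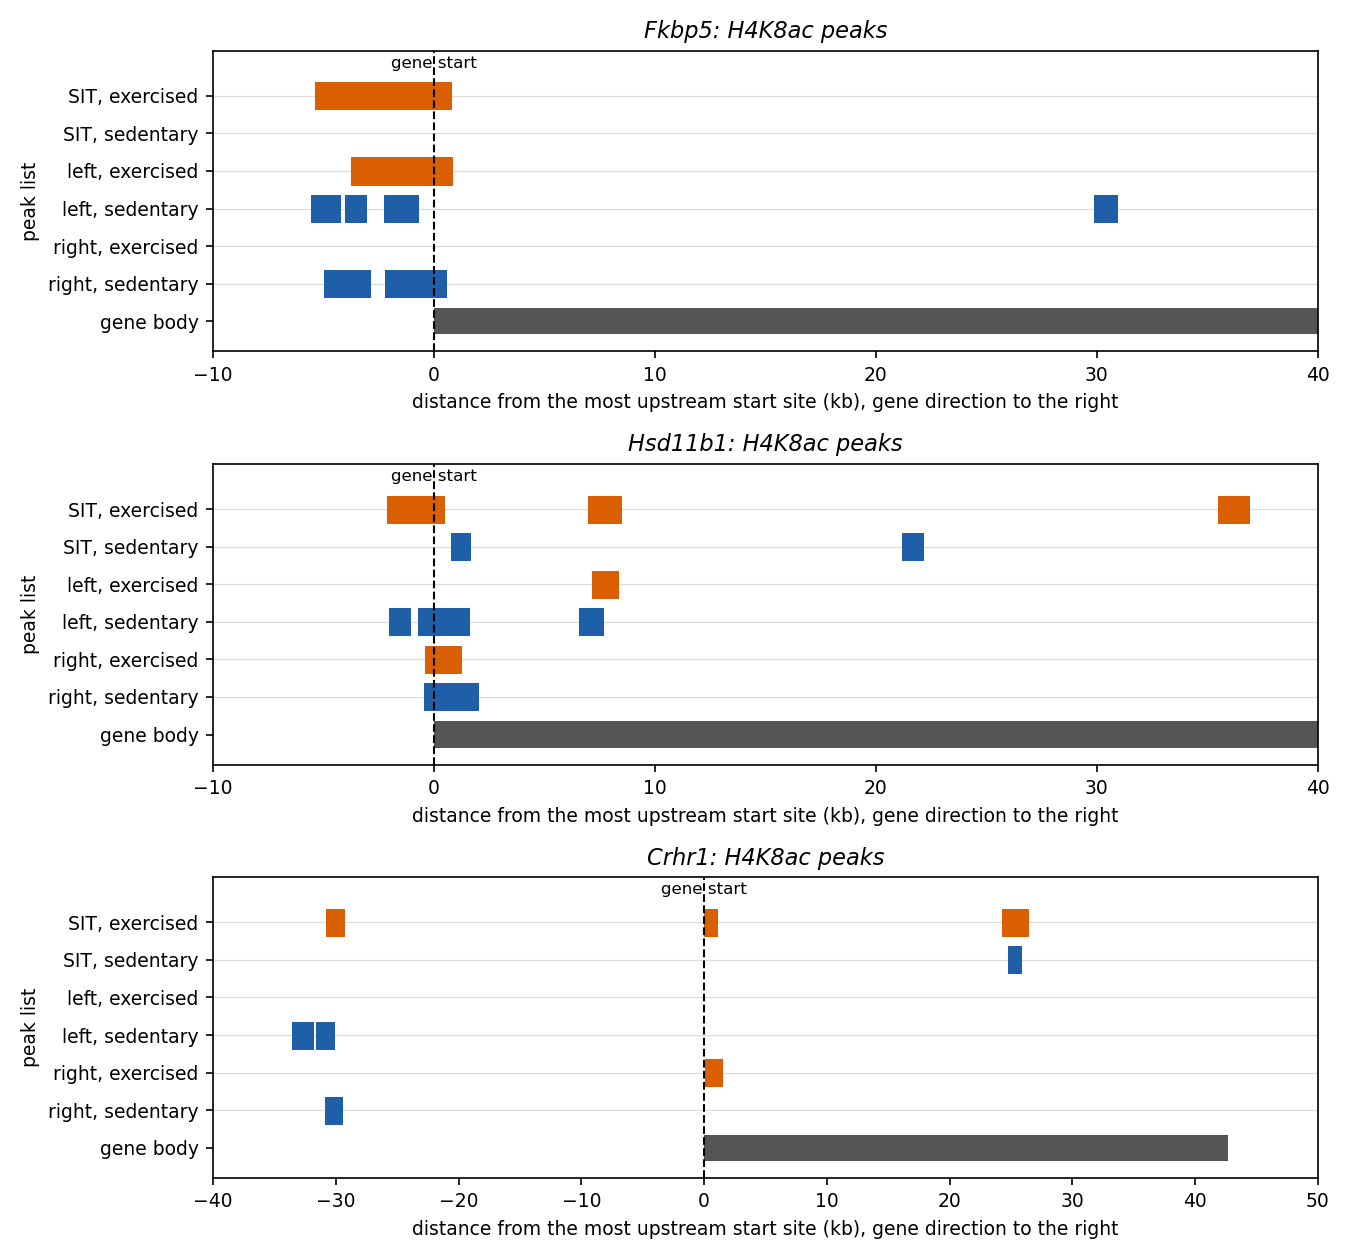
H4K8ac peaks assigned to Fkbp5, Hsd11b1 and Crhr1 in the 6 lists (rows, exercised in orange and sedentary in blue), by distance in kb from the most upstream start site, with the gene body in grey (cut at the right edge for Fkbp5 and Hsd11b1). At the most upstream start of Fkbp5 the exercised SIT and left lists hold 1 wide peak, and the sedentary right list 2 narrower ones. The sedentary left list holds narrower ones that do not reach that start, and the other lists hold none.

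Sgk1 (chromosome 10, 21882184 to 21999903, plus strand) had H4K8ac in every list and H3K27me3 in none. Its peaks numbered 14 in the exercised and 8 in the sedentary SIT list, 3 and 15 in the left arm, and 9 and 11 in the right arm. These ratios, 1.75, 0.2 and 0.818, ran in the direction of the list lengths. Of the 20 regions they formed, 3 were in 6 of 6 lists. The first lay 93749 to 85775 bp upstream. The second ran from 1711 bp before the most upstream start to 4768 bp after it, with a widest peak of 5130 and 2944 bp in SIT, 5887 and 3112 bp in left, and 2083 and 4622 bp in right (exercised, sedentary). The third was intronic, 39514 to 43195 bp into the gene, where 1 peak per list, 1912 to 3682 bp wide, shared 1912 bp in all 6. That intronic region was the only member H4K8ac region whose peaks matched in 6 lists at a reciprocal overlap of 50%. A further region, 54212 to 48952 bp upstream in the lincRNA Platr6, was in 5 lists and absent from exercised left.

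The exercised left list, with 3 peaks, kept the 3 recurrent regions and held no other. Covered bases in the window were 23907, 8885 and 6358 in the exercised and 9253, 21038 and 16487 in the sedentary lists (SIT, left, right). The differences were 14654, -12153 and -10129 bp, with a mean of -2543 ± 14927 bp, within the spread between arms (exact sign-flip permutation p = 1). The 2 conditions overlapped.

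A pair of Sgk1 promoter windows is shown because one lay under H4K8ac in 6 of 6 lists and the other holds a full glucocorticoid response element. That element was searched as AGAACA, any 3 bases and TGTTCT, which reads the same on both strands, and its half-site as AGAACA or TGTTCT, which also occurs within the full element. The window of the most upstream start is chr10:21881934-21882233, plus strand, with 1 half-site in capitals, 195 bases before the start. The other is chr10:21993640-21993939, plus strand, with the full element in capitals, 189 bases before a downstream start.
Sgk1 upstream start: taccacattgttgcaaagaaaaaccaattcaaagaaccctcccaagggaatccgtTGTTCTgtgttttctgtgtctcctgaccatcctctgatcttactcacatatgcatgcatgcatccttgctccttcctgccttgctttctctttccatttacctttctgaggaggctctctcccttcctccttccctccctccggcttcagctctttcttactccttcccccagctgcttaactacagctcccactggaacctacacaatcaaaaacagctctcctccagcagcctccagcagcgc
Sgk1 downstream start: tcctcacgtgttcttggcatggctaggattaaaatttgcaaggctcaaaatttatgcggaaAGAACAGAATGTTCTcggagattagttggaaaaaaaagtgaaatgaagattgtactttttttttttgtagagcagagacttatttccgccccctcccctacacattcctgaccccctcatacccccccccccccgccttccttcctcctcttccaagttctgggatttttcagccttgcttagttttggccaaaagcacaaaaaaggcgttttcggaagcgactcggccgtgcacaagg
Of the 32851 RefSeq promoter windows, 3 (0.00913%) held the full element, and 1 of these was the Sgk1 window. Half-sites were in 18.97% of windows and in 4 of the 15 member windows. Among merged H4K8ac regions, 48 of 60766 held the full element (0.079%). Of 87 member regions, 1 did, at Sgk1. Both counts leave out the chromosome of Nr3c1, whose regions were not searched. A match describes letters and does not show that a receptor binds there.

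That H4K8ac region, 21989885 to 21993840, was listed for exercised SIT, sedentary left and sedentary right mice. The sedentary left peak (3465 bp) and the sedentary right peak (2364 bp) contained the element at 21993701 to 21993715. The exercised SIT peak (3440 bp) ended 377 bases before it. In the exercised left, exercised right and sedentary SIT lists no peak reached this stretch. The pair of lists with the element inside a peak were thus both sedentary and both separate isolations, and in SIT neither list had it inside a peak. Those sedentary lists were longer than their exercised partners, 36425 against 12168 peaks in left and 25159 against 13715 in right. The part of list length in this was not tested.

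**Figure D5:**
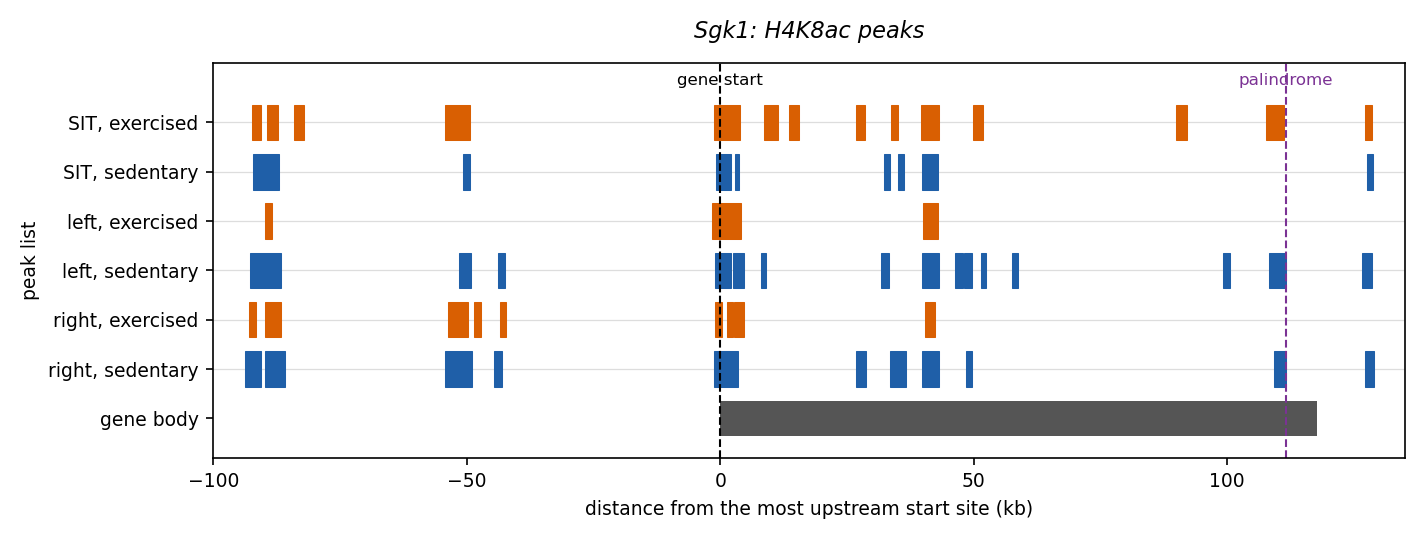
H4K8ac peaks assigned to Sgk1 in the 6 lists (rows, exercised in orange and sedentary in blue), by distance in kb from the most upstream start site, with the gene body in grey and the full glucocorticoid response element as a purple dashed line. Peaks near 90 kb upstream, at the start and near 41 kb recur in all 6 lists, and peaks reach the dashed line in the sedentary left and right lists.

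Tsc22d3 (chromosome X, 140539528 to 140600659, minus strand) was the only one of the 3 hormone-induced genes with H3K27me3. Peaks numbered 2 in the exercised and 1 in the sedentary SIT list, 1 and 1 in the left arm, and 0 and 4 in the right arm. A region 15912 to 23494 bp past the most upstream start was in 5 lists and absent from exercised right, the shortest H3K27me3 list, with peaks 1665 to 3852 bp wide. No promoter peak was annotated except 1 in sedentary right, 1372 bp upstream. Covered bases differed by 943, -313 and -7596 bp (mean -2322 ± 4610.4 bp, exact sign-flip permutation p = 0.75). The single H4K8ac peak, 1115 bp at a downstream start in sedentary SIT mice, lay 35.9 kb from the nearest H3K27me3 peak.

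Over the 10 genes, H4K8ac thus covered more exercised bases in every arm at 1 (Crhr1, through peaks assigned to Sppl2c in left) and fewer at 1 (Nr3c2). In H3K27me3 none went one way in either direction, where 1.13% of 5230 genes were higher and 3.17% lower in 3 of 3 arms. With 3 arms no such test can pass a threshold of 0.05.

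A wider list of 54 genes of the axis, in 5 groups, was counted in the same way, and 42 of them had a peak in some list. Over all 16994 genes with a peak, 79.9% had H4K8ac in some list and 19.3% in 6 of 6, and 43.5% and 16.5% had H3K27me3. Of the 11 peptides and receptors related to urocortin, vasopressin and melanocortin, 10 had a peak, 8 had H3K27me3 and 4 had it in 6 of 6 lists: Ucn and Ucn3, which encode urocortins, Pomc, the precursor of the pituitary hormone ACTH, and Avpr1a, a vasopressin receptor. All 4 had H3K27me3 peaks at their promoters, 6 each over the lists for Ucn, Pomc and Avpr1a and 2 for Ucn3. H4K8ac was listed for 6 of the 10, and in 6 of 6 lists for Pomc, with no promoter peak of that mark, and for Avpr1b, another vasopressin receptor. Of 15 other genes induced by glucocorticoid, 14 had a peak, all 14 had H4K8ac in some list and 4 in 6 of 6, among them Zbtb16, Klf9 and Ddit4, while 3 had H3K27me3 and 0 had it in 6 lists. Of 9 receptor coregulators 7 had a peak, and all 7 had H4K8ac and 1 had H3K27me3. Of 8 chaperone and import genes 5 had a peak, and all 5 had H4K8ac and 1 had H3K27me3. Of 11 genes of steroid synthesis, transport and metabolism 6 had a peak, 4 of them with H4K8ac and 3 with H3K27me3.

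Identical presence over the 12 lists matched some of these genes to members. Zbtb16, Klf9, Ddit4 and Avpr1b had the pattern of Nr3c2, Hsd11b1 and Sgk1, which 2334 genes share in all. Ucn, Ucn3 and Abcb1a had that of Crh, Avpr1a that of Crhbp (119 other genes), Ncoa3 and Hif3a that of Crhr1 (633 others), and Per1 and Mt2 that of Fkbp5 (118 others). The patterns of Nr3c1, Crhr2 and Tsc22d3 were shared with 35, 14 and 11 genes, none of them in the wider list.

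Between conditions, 11 of the 36 wider-list genes with H4K8ac in SIT were in the exercised list only and 1 in the sedentary list only (27.5% and 10.1% of all listed genes). In the left arm the numbers were 2 and 16 of 30 (3.58% and 51.9%), and in the right arm 5 and 12 of 28 (9.14% and 36.7%). For H3K27me3 they were 7 and 0 of 14 in SIT (41.4% and 1.02%), 6 and 0 of 13 in left (18.5% and 9.13%) and 0 and 5 of 12 in right (3.12% and 43.6%). Of the 54 genes, 1 (H6pd) was listed for H4K8ac in the 3 exercised lists and in no sedentary one. Over all 13585 genes listed for that mark, 17 (0.125%) were. Its enzyme supplies the cofactor with which the product of Hsd11b1 makes corticosterone. H6pd also carried H3K27me3 in 6 of 6 lists, with no promoter peak of that mark and 2 promoter peaks of H4K8ac.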

How the data were processed

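Reads were quality checked with FastQC 0.11.9 and aligned with Bowtie2 2.4.1 by the authors, per the labels and the study's methods. SEACR (stringent, 0.01) called the peaks, which were annotated with ChIPseeker 1.8.6 against mm10 with promoters within 3 kb of a start site. The deposited lists give peak positions, widths in bp and the gene each peak was assigned to, with no count, signal or p-value, and how libraries were pooled is not stated. The samples were mapped to groups from the labels, and each list was read as a pooled value of its group.

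Gene bodies were taken from GENCODE M21, which held 99.05% of the assigned transcripts, and promoter windows from RefSeq (GRCm38.p6). Peaks were merged at an overlap of 1 bp. Covered bases were compared over the 3 arms by exact permutation of signs, on both sides. On simulated intervals, covered lengths equalled a count of single bases in 20 of 20 sets. The 10 genes and the wider lists were chosen with earlier results of these data known. The named genes were the 10 members and, of the wider list, those one way in 3 arms, with H3K27me3 in 6 lists or with a member's pattern, at most 4 of each. Python 3.11.15, numpy 2.4.6 and pandas 2.3.3 were used.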

Additional observations from a re-analysis of the deposited data

Results flagged for a closer look

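Of the 10 genes, 1 was listed for H4K8ac only for exercised mice in one arm and only for sedentary mice in another. This was Fkbp5, in the exercised list only in SIT and in the sedentary list only in the right arm, and in both lists in the left arm. The difference between the arms was not tested, since each list is 1 pooled unit. The exercised list was the longer one in SIT and the shorter one in the right arm, and the part of list length in this was not tested.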

How the results depend on the processing

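Of 102 recomputed values, 78 stayed within 1.5 times the main one and 24 moved further. With promoter peaks alone, the members listed for H4K8ac fell to 2 in exercised left, 3 in exercised right and 4 in sedentary right, and for H3K27me3 to 3 in exercised SIT. With the widest 50% of each list they fell to 3 (H4K8ac, exercised left), 2 (H4K8ac, sedentary SIT) and 3 (H3K27me3, exercised SIT). With equal numbers of peaks by width they fell to 4 (H4K8ac, sedentary left), 5 (H4K8ac, sedentary right) and 3 (H3K27me3, exercised SIT), so that the direction between conditions turned in these 3 pairs. The same setting left 3 members in both right H3K27me3 lists. Counting any peak over the gene with 3 kb on either side gave 3 for H4K8ac in exercised right and 4 in sedentary right. An alternative chosen after seeing the data kept assigned peaks within 3 kb of the gene and gave 3 in exercised left, 3 in exercised right and 4 in sedentary right. Leaving out distal intergenic peaks moved none of the 12 counts by over 1.5 times. It made the H4K8ac counts of the 2 conditions equal in SIT (6 and 6) and in right (5 and 5).

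Members with more covered H4K8ac bases in the exercised list in every arm fell from 1 to 0 around the start site and with peaks assigned to the gene alone, a second alternative chosen after seeing the data, and members with fewer fell from 1 to 0 with 10 kb on either side. For H3K27me3, 1 member (Tsc22d3) was lower when bases were taken as a share of the list, against 0. Leaving out each arm in turn gave 1 to 2 members higher and 1 to 3 lower for H4K8ac, and 0 to 1 higher and 0 to 3 lower for H3K27me3, with the added genes Fkbp5 (higher, without right), Hsd11b1 and Sgk1 (lower, without SIT) and Nr3c1 (lower, without right) for H4K8ac, and Crhr2 (higher, without right) and Crh, Crhbp and Tsc22d3 (lower, without SIT) for H3K27me3. At a reciprocal overlap of 50%, the member H4K8ac regions in 6 of 6 lists fell from 7 to 1. The causes were not tested.

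No paired analysis was possible because the lists pool their libraries and carry no replicate numbers, so that conditions were paired by arm and not by replicate, and for the same reason no replicate was left out. The lists give no depth, which limits every statement on a gene absent from a list.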
